A study of Mus musculus with 8 samples.

Results

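The genes described here are the glucocorticoid receptor, an enzyme that activates its hormone and genes that the receptor is known to induce: Nr3c1, Hsd11b1, Fkbp5, Tsc22d3, Sgk1, Zbtb16, Pdk4, Errfi1, Cdkn1a and Angptl4. They were chosen by symbol in the platform's annotation, and all 10 were measured, through 31 array features, among 20842 named genes. Glucocorticoids are adrenal hormones whose rise around birth prepares the lung for air breathing. The hormone enters the cell and binds a cytoplasmic receptor held ready by heat shock proteins. The receptor then moves to the nucleus and, as a pair, binds DNA at paired half-sites, switching on genes that thin the alveolar walls, mature the surfactant system and restrain cell growth.

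The RNA came from lungs of C57Bl/6J pups kept from postnatal day 0 to day 3 in a chamber with 20% oxygen. The 4 WT_normoxia arrays are of wild-type pups, and the 4 TG_normoxia arrays are of pups labelled Fgf10 +/-, which carry 1 disrupted copy of Fgf10, a mesenchymal growth factor for lung epithelium. The disruption is labelled for the whole animal, and the sources used here give neither litter, sex nor hormone level and mention no steroid treatment. The values are log2 signals of 1-colour arrays that share 1 distribution, so the unit of each difference below is log2 signal, Fgf10+/- minus wild type.

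Over all named genes, the correlation of 2 arrays ran from 0.977 to 0.986. The Fgf10 signal itself lay between 6.89 and 7.81 in the wild-type arrays and between 7.55 and 8.33 in the arrays labelled Fgf10 +/-. This signal was not lower in the arrays labelled Fgf10 +/-, and where the allele's lesion lies against the probed stretch is unknown here, so it is no check of the labels, and every direction rests on them. Wild-type replicate 4 stood apart in tissue markers. The summed signal of 14 skeletal muscle genes was 13.3 there and at most 8.56 elsewhere. That of 8 fat genes was 9.13 and at most 7.25 elsewhere, and that of 7 cartilage genes was 14.1 and at most 7.16 elsewhere. The lowest wild-type sums of muscle (8.52) and fat (6.84) also lay above the highest Fgf10+/- sums (8.36 and 6.77), while those of cartilage overlapped. Without wild-type replicate 4 the median differences of the muscle, fat and cartilage lists were -0.23, 0.08 and -0.29. Of the marker genes of alveolar epithelium, fibroblasts, endothelium and macrophages, none lay below 3.5 on all 8 arrays. This limit is close to the median of all features (3.47). It shows only that each gene reached 3.5 on at least 1 array.

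The DNA near the starts of these genes was read from RefSeq (GRCm38.p6), which held windows for 7 of the 10 genes. Each window covers the 250 bases before a start site, and the 7 genes had 16 such windows, since several have more than 1 start. The windows were searched on both strands for the receptor's half-site TGTTCT, which reads AGAACA on the other strand. They were also searched for the paired form, GNACA and TGTNC with 3 bases between them, which overlaps the half-sites. The following 3 windows show the range found, from a full pair (Sgk1) through a single half-site (Tsc22d3) to none (Errfi1). They are written 5′ to 3′ on the strand of the gene, with half-sites in capitals, and lie at chr10:21993640-21993889 (plus strand), chrX:140600523-140600772 (minus strand) and chr4:150854820-150855069 (plus strand).

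Sgk1: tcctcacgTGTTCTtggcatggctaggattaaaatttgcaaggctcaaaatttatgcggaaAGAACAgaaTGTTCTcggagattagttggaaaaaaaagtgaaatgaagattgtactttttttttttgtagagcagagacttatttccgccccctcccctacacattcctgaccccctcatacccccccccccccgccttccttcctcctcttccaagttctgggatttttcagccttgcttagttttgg

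Tsc22d3: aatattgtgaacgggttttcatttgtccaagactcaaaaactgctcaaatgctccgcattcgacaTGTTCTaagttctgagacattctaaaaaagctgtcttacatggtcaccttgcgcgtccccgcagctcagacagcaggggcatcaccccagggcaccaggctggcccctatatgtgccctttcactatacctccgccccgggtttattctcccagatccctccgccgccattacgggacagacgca

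Errfi1: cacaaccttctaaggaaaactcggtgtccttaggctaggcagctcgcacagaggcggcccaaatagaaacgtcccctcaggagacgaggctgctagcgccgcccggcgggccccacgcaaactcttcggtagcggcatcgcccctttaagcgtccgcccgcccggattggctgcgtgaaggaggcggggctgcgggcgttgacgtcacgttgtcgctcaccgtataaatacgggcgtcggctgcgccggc

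The Sgk1 window held a complete pair, with half-sites at positions -189 and -180 from the start site, and a further half-site at -242. The half-site of Tsc22d3 lies at -185. The Sgk1 window was the 1 of the 16 with a pair, while 0.39% of 32851 windows of the same length in the mouse table held one. A half-site was found in 4 of the 16 windows, against 16.1% of all windows. Most of these 4 were windows of Sgk1, the gene with the most starts, and the rest belonged to Tsc22d3. By gene this was 2 of 7, and both genes also had windows without a half-site. The windows of Errfi1, Fkbp5, Pdk4, Cdkn1a and Hsd11b1 held neither. These matches are of letters alone. Many sites of this receptor lie far from gene starts, outside windows of this size. Zbtb16, Angptl4 and Nr3c1 are not shown.

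Of the 10 genes, 8 had a lower mean in the Fgf10+/- arrays and 2 a higher one, and the median difference was -0.13, beside -0.00 over all genes, of which 50.2% had a lower mean. The differences were uneven. Zbtb16 (-0.80), Pdk4 (-0.77) and Errfi1 (-0.69) had the lowest values, and the other 7 genes lay between -0.17 and 0.21. With limma and adjustment over all genes, 0 of the 10 passed an adjusted p of 0.05, as did 0 of 20842 genes (0%). At an unadjusted p under 0.05 there were 2 of the 10 and 2298 of all genes. The groups did not overlap for 3 of the 10, Zbtb16, Errfi1 and Tsc22d3, each lower in the Fgf10+/- arrays, where 4.4% of all genes were separated in that direction. None of the 10 was separated in the other direction, where the share of all genes was 2.99%. With each array left out in turn the median over the 10 genes ran from -0.18 (without Fgf10+/- replicate 1) to -0.05 (without Fgf10+/- replicate 2).

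**Figure D1:**
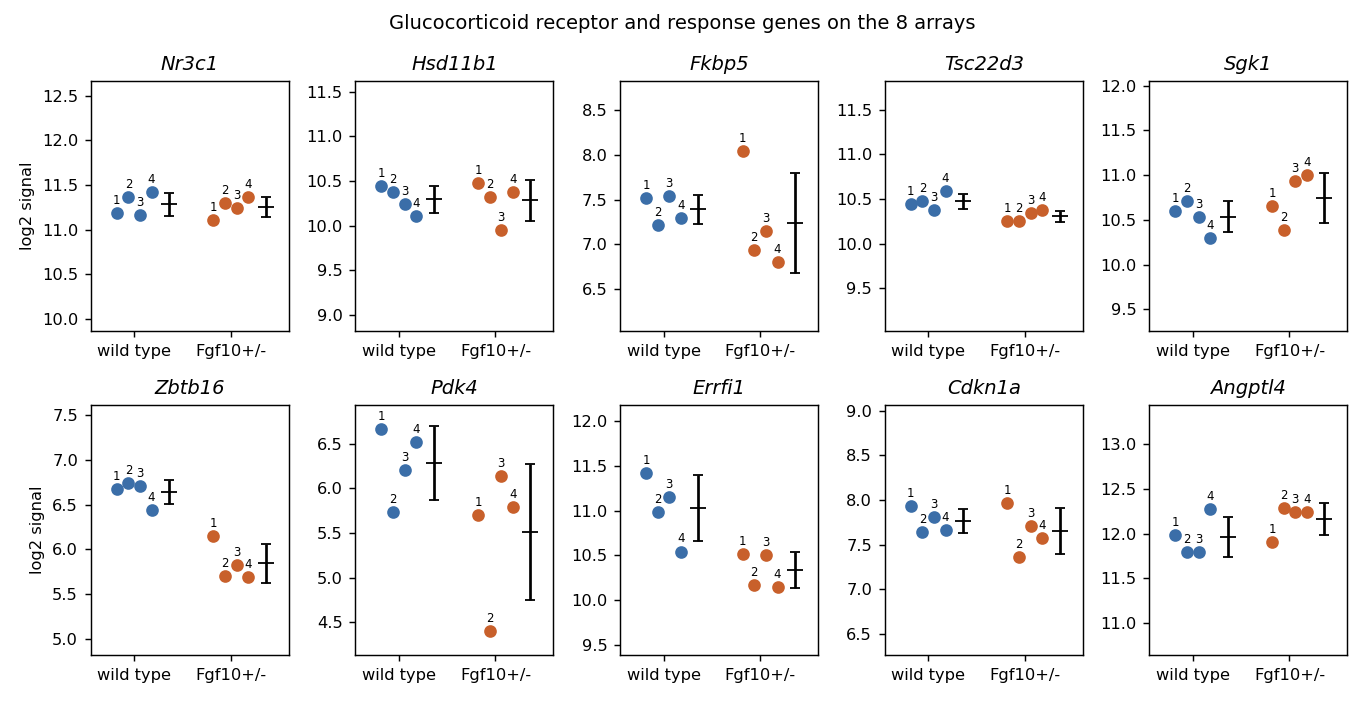
Log2 signal (vertical axis, 2.8 units in every panel) of the 10 genes in each wild-type (blue) and Fgf10+/- (orange) array, numbered by replicate, with the mean and SD of the 4 arrays in black. The 4 Fgf10+/- points of Zbtb16 sit between 5.69 and 6.15, all below the wild-type points, which sit between 6.44 and 6.74.

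Nr3c1 encodes the glucocorticoid receptor, through which all the other genes here respond to the hormone. Its signal in wild-type replicates 1 to 4 was 11.19, 11.36, 11.16 and 11.42, and in Fgf10+/- replicates 1 to 4 it was 11.11, 11.30, 11.24 and 11.36. The groups covered the same range. The means were 11.28 ± 0.13 (SD, n = 4) and 11.25 ± 0.11 (SD, n = 4). The difference of -0.03 had a 95% confidence interval of -0.29 to 0.23 (SE 0.11; limma adjusted p = 0.950; two-sided exact permutation p = 0.743). In linear terms the interval reached from 0.820 to 1.17 times the wild-type signal. A dimmer second feature of the gene, with a mean of 6.90, differed by 0.25, so the sign of the receptor's difference depends on the feature.

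Hsd11b1 encodes the reductase that makes the active hormone from its inert 11-keto form inside cells, and so sets the local supply. In wild-type replicates 1 to 4 it had 10.44, 10.38, 10.24 and 10.11, and in Fgf10+/- replicates 1 to 4 it had 10.48, 10.31, 9.96 and 10.38. Fgf10+/- replicate 3 was the lowest of the 8 arrays, and the rest were mixed. The difference was -0.01 (SE 0.14; 95% confidence interval -0.35 to 0.32; limma adjusted p = 0.986). The gene has 10 features on the array, and their differences ran from -0.07 to 0.04. Within an array the 10 features scattered with an SD of 0.0702 around their own means, while their average varied between the 8 arrays with an SD of 0.153. The features read the same RNA, so their agreement bears on the measurement alone.

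**Figure D2:**
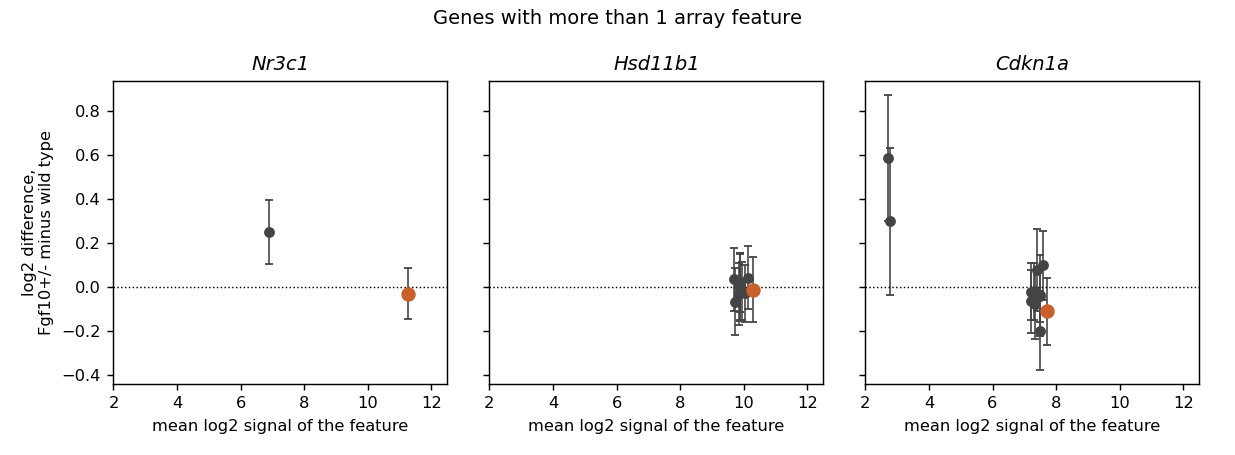
Difference between the groups (vertical axis, log2, Fgf10+/- minus wild type, with limma's standard error) against the mean log2 signal of each feature (horizontal axis) for the genes with more than 1 feature; orange marks the feature that stands for the gene. The 10 Hsd11b1 features lie between -0.07 and 0.04, and the 2 Cdkn1a features near the floor lie above the other 10.

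Among the genes that are the usual readouts of the receptor, Fkbp5 encodes a co-chaperone that binds the receptor complex and lowers its affinity for hormone, a feedback brake. Its wild-type values were 7.51, 7.22, 7.54 and 7.30, and its Fgf10+/- values 8.05, 6.94, 7.14 and 6.81. Fgf10+/- replicate 1 was the highest of all 8 arrays and the other 3 Fgf10+/- arrays were the lowest 3. The SD was 0.56 in the Fgf10+/- group and 0.16 in the wild type. The difference was -0.16 (SE 0.26; 95% confidence interval -0.77 to 0.45; limma adjusted p = 0.878), and it was -0.43 without Fgf10+/- replicate 1 (adjusted p = 0.320) and -0.01 without Fgf10+/- replicate 4. With the signal of Y-linked genes minus Xist as a covariate for sex, which is not labelled, it was -0.02. The size of this difference thus depended on which arrays and covariates entered.

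Tsc22d3, or GILZ, encodes a leucine zipper protein that carries part of the hormone's anti-inflammatory action. Wild-type replicates 1 to 4 had 10.44, 10.48, 10.38 and 10.59, and Fgf10+/- replicates 1 to 4 had 10.25, 10.26, 10.35 and 10.37. All Fgf10+/- values lay below all wild-type values, but the gap between the groups was 0.00728, far under the standard error of 0.10. The difference was -0.17 (95% confidence interval -0.39 to 0.06; limma adjusted p = 0.591; exact permutation p = 0.0286, the lowest value possible over 70 assignments). When arrays were centred on their median or 75th percentile the groups overlapped.

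Sgk1 encodes a kinase that keeps epithelial sodium channels at the cell surface, part of clearing liquid from the newborn lung. Its wild-type values were 10.60, 10.71, 10.53 and 10.30, and its Fgf10+/- values 10.66, 10.38, 10.93 and 11.01. The 2 highest arrays were Fgf10+/- replicates 3 and 4, and the 2 lowest were wild-type replicate 4 and Fgf10+/- replicate 2. The difference was 0.21 (SE 0.17; 95% confidence interval -0.18 to 0.59; limma adjusted p = 0.713). It was 0.07 when wild-type replicate 4 and Fgf10+/- replicate 3 were both left out.

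Zbtb16, or PLZF, encodes a zinc finger transcription factor that is strongly induced by glucocorticoids in many cell types. In wild-type replicates 1 to 4 it had 6.68, 6.74, 6.70 and 6.44. In Fgf10+/- replicates 1 to 4 it had 6.15, 5.70, 5.82 and 5.69. Every Fgf10+/- array lay below every wild-type array, and 0.29 parted the nearest values. The means were 6.64 ± 0.14 (SD, n = 4) and 5.84 ± 0.22 (SD, n = 4). The difference of -0.80 (SE 0.14; 95% confidence interval -1.12 to -0.48) corresponds to 0.575 times the wild-type signal, with an interval of 0.460 to 0.717. It had the smallest p of the 10 genes and ranked 61 among all genes by p. The limma adjusted p was 0.140, which does not pass, and the two-sided exact permutation p was 0.0286. It passed in 2 alternative settings of the same test. With a variance trend and robust settings its adjusted p was 0.0357 and 1.99% of all genes were called. There its SE rose from 0.14 to 0.19 and its unadjusted limma p from 0.00041 to 0.00056. The lower adjusted p thus came from the adjustment over all genes. With the dimmer genes, those under the median signal, left out the adjusted p was 0.0186 and 2.76% were called. The other 9 genes did not pass in either setting. With each array left out in turn the difference stayed between -0.90 and -0.75.

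Errfi1, or MIG6, encodes an inhibitor that binds active EGF receptors and has them degraded. In wild-type replicates 1 to 4 it had 11.43, 10.99, 11.16 and 10.54, and in Fgf10+/- replicates 1 to 4 it had 10.52, 10.17, 10.51 and 10.15. The groups did not overlap, but only 0.0286 parted wild-type replicate 4 from Fgf10+/- replicate 1. The difference was -0.69 (SE 0.20; 95% confidence interval -1.15 to -0.23; limma adjusted p = 0.261; exact permutation p = 0.0286), or 0.619 times the wild-type signal with an interval of 0.449 to 0.852. It was -0.85 without wild-type replicate 4 and -0.56 without wild-type replicate 1.

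Cdkn1a encodes p21, a cyclin-dependent kinase inhibitor that halts the cell cycle and is a target of both the glucocorticoid receptor and p53. Its wild-type values were 7.93, 7.64, 7.82 and 7.67, and its Fgf10+/- values 7.97, 7.37, 7.71 and 7.57. The Fgf10+/- arrays held both the highest and the lowest value. The difference was -0.11 (SE 0.15; 95% confidence interval -0.46 to 0.23; limma adjusted p = 0.840). Of its 12 features, 10 had mean signals between 7.21 and 7.71 and differences between -0.20 and 0.10. The other 2, annotated to other transcript records, lay near the floor with means of 2.72 and 2.78 and differed by 0.59 and 0.30. When all 12 were averaged the difference was 0.04.

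Pdk4 and Angptl4 are induced by glucocorticoids and also by the fatty acid receptors of the PPAR family. Pdk4 encodes the kinase that shuts down pyruvate dehydrogenase and so spares glucose. Its wild-type values were 6.66, 5.73, 6.21 and 6.52, and its Fgf10+/- values 5.70, 4.41, 6.14 and 5.79. All 4 Fgf10+/- arrays lay below the wild-type mean of 6.28, and the groups overlapped through wild-type replicate 2. The difference was -0.77 with a wide error (SE 0.38; 95% confidence interval -1.65 to 0.11; limma adjusted p = 0.516; exact permutation p = 0.0857). It was -0.40 without Fgf10+/- replicate 2 and -0.98 without Fgf10+/- replicate 3. Without wild-type replicate 4, the array with muscle and fat markers, it was -0.69.

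Angptl4 encodes a secreted inhibitor of lipoprotein lipase. Its wild-type values were 11.98, 11.80, 11.80 and 12.27, and its Fgf10+/- values 11.90, 12.29, 12.24 and 12.24. The Fgf10+/- arrays other than replicate 1 clustered at the level of wild-type replicate 4, above the other 3 wild-type arrays. The difference was 0.21 (SE 0.15; 95% confidence interval -0.14 to 0.55; limma adjusted p = 0.679), and 0.31 without wild-type replicate 4. Pdk4 and Angptl4 thus had differences of opposite sign, and neither passed.

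**Figure D3:**
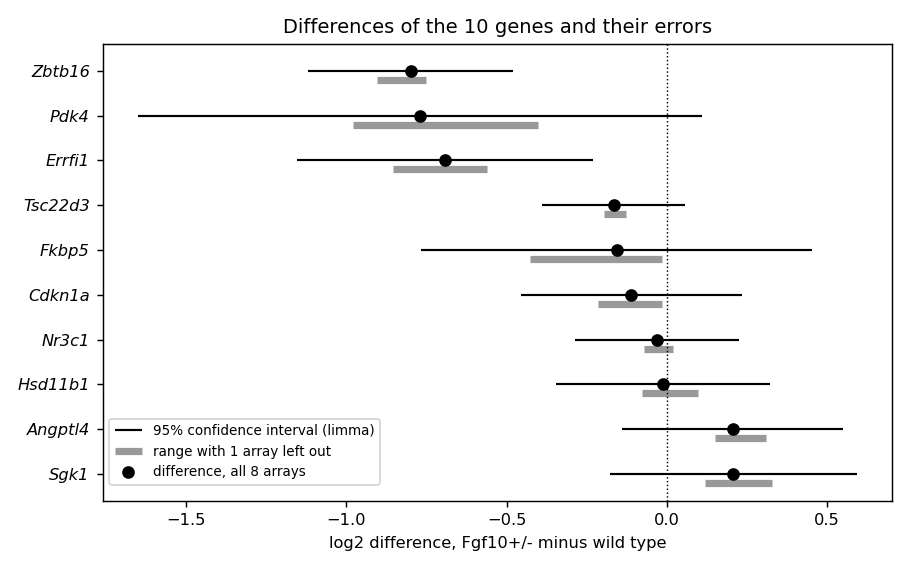
Difference between the groups for each of the 10 genes (horizontal axis, log2, Fgf10+/- minus wild type) with its 95% confidence interval from limma (thin line) and the range of values with 1 array left out (grey bar). The intervals of Zbtb16 (-1.12 to -0.48) and Errfi1 (-1.15 to -0.23) lie below 0 before any adjustment over genes, and those of the other 8 genes include it.

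Across arrays, the 10 genes did not move as a block. The median deviation of the 10 genes from their own 8-array means was 0.18, 0.08, 0.05 and 0.07 in wild-type replicates 1 to 4 and -0.11, -0.30, -0.03 and -0.06 in Fgf10+/- replicates 1 to 4. Fgf10+/- replicate 1 held the highest value of 3 genes (Hsd11b1, Fkbp5 and Cdkn1a) and the lowest of 2 (Nr3c1 and Tsc22d3). Fgf10+/- replicate 4 held the lowest value of 3 (Fkbp5, Zbtb16 and Errfi1) and the highest of Sgk1.

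Markers of some cell types also had lower means in the Fgf10+/- arrays, and others did not. All 10 markers of alveolar type 2 (AT2) cells, which make surfactant, had a lower mean in the Fgf10+/- arrays. Among them Sftpc was all but unchanged (-0.0024, SE 0.085, groups overlapping). Its mean of 15.98 in both groups lay at the top of the value range (highest 15.99), where a difference may be compressed. The summed signal of the 10 was 17.00 to 17.17 in wild type and 16.80 to 16.93 in Fgf10+/-. All 8 markers of alveolar type 1 cells had a lower mean (14.90 to 15.04 against 14.63 to 14.70), as did all 7 of ciliated cells (12.18 to 12.72 against 11.75 to 12.06). All 11 cardiac muscle markers had a lower mean too (14.29 to 14.74 against 13.52 to 14.17). Whether their signal came from muscle of the pulmonary veins or from heart tissue in the samples was not tested. Fibroblast markers had a higher mean in 5 of 6 (15.72 to 16.10 against 16.09 to 16.32). Markers of endothelium (3 lower, 4 higher, median 0.01), macrophages (3 lower, 3 higher, median -0.04) and lymphocytes (4 lower, 4 higher, median 0.01) were divided. Of 4 erythroid markers 3 had a higher mean. Their summed signal was highest in Fgf10+/- replicate 3 (14.0, against at most 12.73 in wild type). The erythroid median of 0.14 was -0.47 without that array and 0.55 without Fgf10+/- replicate 1. Of the AT2, AT1, ciliated and cardiac markers none lay below 3.5 on all arrays. The part of these cell types in the Zbtb16, Errfi1, Tsc22d3 and Pdk4 values was not tested. Nor was it tested for the pathway genes given below, those of the PPAR list included. In whole-lung RNA, fewer cells of a type and less RNA per cell cannot be told apart.

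**Figure D4:**
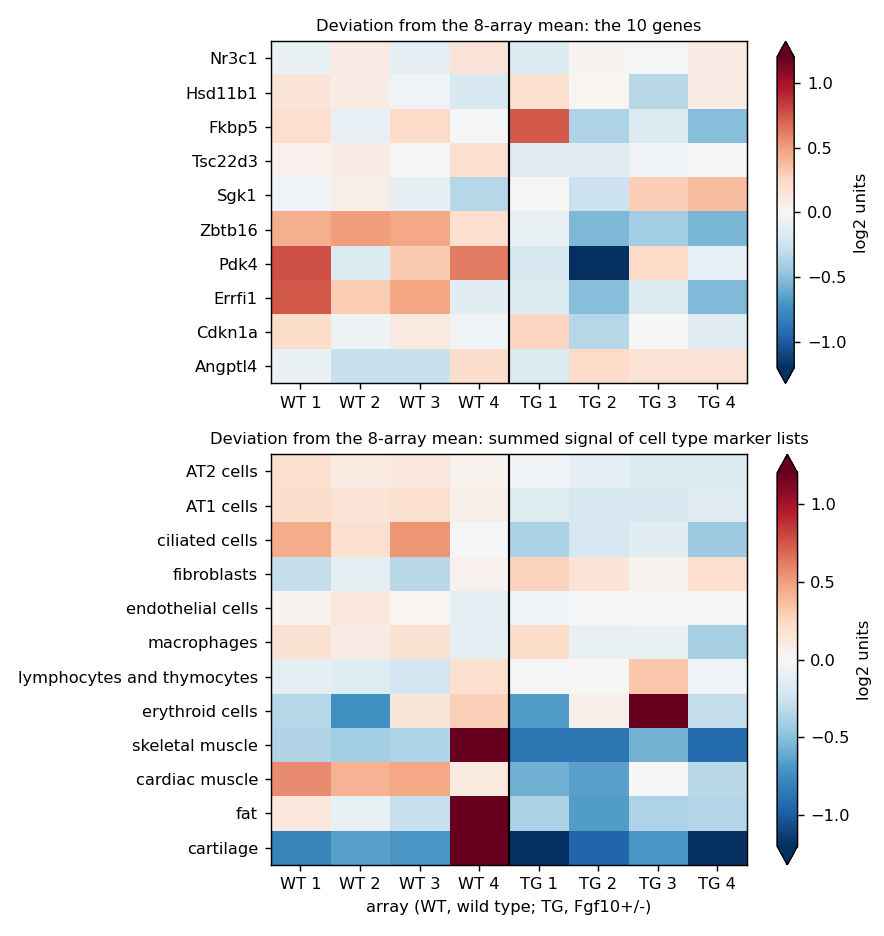
Deviation of each array (columns, wild type left and Fgf10+/- right of the line) from the 8-array mean in log2 units, for the 10 genes (upper panel) and for the summed signal of each cell type marker list (lower panel); colours stop at 1.2 in either direction. Zbtb16 is above its mean in all 4 wild-type arrays and below it in all 4 Fgf10+/- arrays, as are the summed AT2 and AT1 markers, and skeletal muscle, fat and cartilage markers stand out in wild-type replicate 4.

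The genes whose pattern over the 8 arrays was most like each of the 10 were taken by Pearson correlation from the 10421 genes with at least the median signal. These are descriptions with no test, and the points share the arrays and the group difference. Zbtb16 was followed most closely by Enho (0.990), Dcaf11 (0.990) and Slc34a2 (0.984). Errfi1 was followed by Rsph9 (0.990), Fam131a (0.980) and Stk33 (0.978). Tsc22d3 was followed by Mcl1 (0.965), 1600029O15Rik (0.959) and Usp48 (0.959). Nr3c1 was followed by Pdgfra (0.983), Ahr (0.983) and Sned1 (0.979), and Hsd11b1 by Zmpste24 (0.958), Klra1 (0.954) and Rnase4 (0.952). For Fkbp5 the genes were C330007P06Rik (0.972), Fbxl14 (0.953) and Zfp512b (0.952), and for Sgk1 they were Dcun1d1 (0.941), Zfp960 (0.932) and Phactr1 (0.903). For Pdk4 they were Ntf5 (0.936), Mtx1 (0.933) and Mrps9 (0.926), for Cdkn1a Furin (0.963), Alg5 (0.956) and Sdhd (0.941), and for Angptl4 Zfp53 (0.971), Zfp235 (0.971) and Ubfd1 (0.970). None of the 10 was among the nearest 3 of another.

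The other genes of the pathway were read from 8 lists, in which 114 of 119 listed genes were measured. With limma, 0 of them passed in either direction, so values are given. Upstream of the genes above, 7 genes of steroid supply and the second receptor had a median of -0.12, and the groups overlapped for all 7. The median was -0.05 without Fgf10+/- replicate 3 and 0.08 with dim genes left out. The smallest p belonged to Abcb1b (0.37, adjusted p = 0.616), a pump that exports steroids, and Serpina6 (-0.37, adjusted p = 0.637), the hormone's carrier protein in blood, the latter near the floor. The mineralocorticoid receptor Nr3c2 (2.998 in Fgf10+/-, 3.62 in wild type) and the inactivating enzyme Hsd11b2 (2.56 and 2.83) were near the floor in both groups. H6pd, which feeds Hsd11b1 with its cofactor, differed by -0.12.

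Chaperones that fold and hold the receptor had the highest median of the 8 lists, 0.21 over 12 genes, 10 of which had a higher mean. This median was 0.12 without Fgf10+/- replicate 3. The groups did not overlap for 2, both higher, against the 2.99% of all genes given above: Ptges3 (0.20, adjusted p = 0.543), which encodes the co-chaperone p23, and Hspa8 (0.22, adjusted p = 0.603), a constitutive heat shock protein. The Hspa8 groups all but touched, with the highest wild-type and the lowest Fgf10+/- value both at 14.20. Hsp90aa1 and Hsp90ab1, which encode the HSP90 that holds the receptor, differed by 0.38 and 0.22 with overlapping groups. The 11 measured coregulators had a median of 0.04, which was -0.00 without Fgf10+/- replicate 4, and no member's groups were apart. Crtc2 (-0.32, adjusted p = 0.408) and Crebbp (0.16, adjusted p = 0.714) had the smallest p.

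The 24 other genes known to be induced by glucocorticoids had a median of -0.19, with 15 lower and 9 higher means. Groups were apart for 3 in the lower and 1 in the higher direction (4.4% and 2.99% of all genes). The lower ones were Mt1 (-0.68, SE 0.18, adjusted p = 0.230), a metal-binding metallothionein, Txnip (-0.40, SE 0.12, adjusted p = 0.261), an inhibitor of thioredoxin, and Klf9 (-0.50, SE 0.15, adjusted p = 0.277), a transcription factor that the receptor induces directly. Mt1 ran from 11.93 to 12.68 in wild type and from 11.50 to 11.87 in Fgf10+/-. The higher one was Cebpb (0.24, adjusted p = 0.416), a transcription factor of the acute phase response. The list median was -0.06 without Fgf10+/- replicate 4. Several direct targets had overlapping groups, among them Per1 (-0.17), Dusp1 (-0.67, SE 0.45) and Nfkbia (-0.04). Mt2, a second metallothionein, also overlapped (-0.66, SE 0.22). The largest differences of the list ran both ways, with overlapping groups and dim signals. They were Klf15 (-0.90, SE 0.43, mean 4.43 in wild type) and Tat (0.90, SE 0.34, mean 3.84 in wild type).

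Genes that steroids are known to mature in the perinatal lung had a median of -0.33 over 17 measured members, with 13 lower means. This median was -0.24 without wild-type replicate 1 and -0.44 without wild-type replicate 4. It was -0.50 with the features of a gene averaged or taken singly. The groups were apart for 8 in the lower direction (4.4% of all genes) and for 1, Scnn1g, in the higher one (2.99% of all genes), the latter at a signal near the floor (1.84 in wild type and 2.43 in Fgf10+/-). The 4 with the smallest p were Lpcat1 (-0.86, adjusted p = 0.0767), which remodels surfactant lecithin, Abca3 (-0.73, adjusted p = 0.0878), which pumps lipid into lamellar bodies, Slc34a2 (-0.80, adjusted p = 0.140), a phosphate transporter of AT2 cells, and Atp1b1 (-0.65, adjusted p = 0.166), a subunit of the sodium pump. The list shares Lpcat1, Abca3, Slc34a2, Sftpb, Sftpc and Sftpd with the AT2 markers above, and Aqp5 with the AT1 markers. Of these shared genes, all but Sftpc and Sftpd are among the 8 with groups apart in the lower direction. The values of the shared genes are not a second observation. Outside the epithelium, Crispld2 and Fgf7, steroid-responsive genes of lung fibroblasts, both differed by 0.21 with overlapping groups.

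The list of PPAR and fatty acid oxidation targets had 17 measured genes. It also holds the receptors Ppara, Ppard and Pparg, and it leaves out Pdk4 and Angptl4. Of the 17 genes, 13 had a lower mean and the groups were apart for 5, all lower (4.4% of all genes). They included Acot1 (-0.51, adjusted p = 0.166), an acyl-CoA thioesterase, Plin5 (-0.76, adjusted p = 0.185), a lipid droplet protein, the fatty acid carrier Cd36 (-0.40, adjusted p = 0.249) and Lpl (-0.30, adjusted p = 0.314), the lipase that ANGPTL4 inhibits. The list median of -0.12 was -0.19 without Fgf10+/- replicate 3. The 17 p53 targets that surround Cdkn1a had a median of -0.03, which was 0.06 without Fgf10+/- replicate 1 and -0.11 without wild-type replicate 3. Groups were apart for Btg2 (-0.55, adjusted p = 0.192) and Mdm2 (-0.29, adjusted p = 0.304) in the lower and for Phlda3 (0.44, adjusted p = 0.234) in the higher direction, where the shares of all genes were 4.4% and 2.99%. The list of 9 genes of the EGF receptor pathway holds receptors, ligands and Lrig1, a negative regulator of the receptors. Its median of -0.00 was the value of Btc (3.56 in both groups), and Erbb3, Erbb4, Ereg and Tgfa also lay near the floor. The median was -0.25 with genes dimmer than the median left out, -0.24 with array weights, and -0.19 without wild-type replicate 3 or without Fgf10+/- replicate 1. Groups were apart for Erbb2 alone (-0.46, adjusted p = 0.267; 4.4% of all genes were apart in that direction), and Egfr itself differed by -0.21 (SE 0.13, adjusted p = 0.622).

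**Figure D5:**
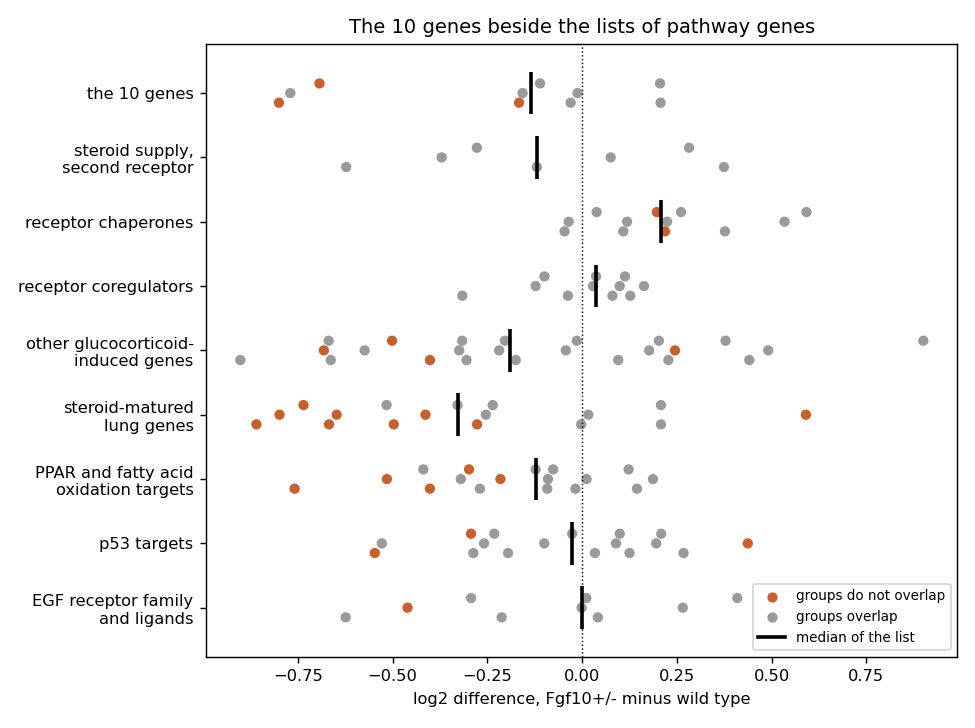
Difference of each measured gene (horizontal axis, log2, Fgf10+/- minus wild type) for the 10 genes and the 8 pathway lists, with orange for genes whose groups do not overlap and a black bar at the median of the list. The chaperones centre above 0 (median 0.21) and the steroid-matured lung genes below it (median -0.33), while the medians of p53 targets (-0.03) and the EGF receptor family (-0.00) lie near 0.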

How the data were processed

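The 8 lung RNA samples were isolated with miRNeasy, amplified with Agilent's Low-Input QuickAmp reagents and Cy3-labelled, according to the labels. The deposited values are log2 signals of 62976 features (1.51 to 15.99). Sorted values differed between arrays by at most 0.0042, so they are quantile normalized, and the authors used limma, per the submitters' processing notes. Background correction is unstated, so signals near the floor may be compressed.

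Features with a blank (120) were left out, and 31425 features were named for 20842 genes by the platform annotation with symbols updated through RefSeq. The feature with the highest mean stood for its gene. Groups were compared with limma 3.58.1 (R 4.3.3, lmFit and eBayes without covariates, two-sided, Benjamini-Hochberg over all genes, threshold 0.05), and with exact permutation tests for the 10 genes. The limma fit was also run on simulated data, with changes larger than the differences of the 10 genes. That run does not show how often differences of their size would pass. With 4 samples a group, the number of arrays limits precision. The series description calls the samples independent but does not tie them to animals, so p-values measure the variation among these samples. Summed marker signals are log2 of summed linear signals. The 10 genes and all lists were chosen with earlier results of these data known. Per list, up to 4 genes whose groups do not overlap are named by smallest p, otherwise the 2 with the smallest p. A few more are named for their role or the size of their difference, chosen after their values were seen. The alternatives were other feature rules, scalings, filters on dim genes, variance models, a replicate block, a sex covariate and arrays left out.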

Additional observations from a re-analysis of the deposited data

Results flagged for a closer look

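Groups of 4 arrays were examined for 1 array standing apart (Dixon's ratio of gap to range above its 95% critical value). Of 64 groups, for the 10 genes and the named pathway genes, 3 had such an array, and chance gives about 1 in 20. Angptl4 was 11.90 in Fgf10+/- replicate 1, below 12.24 to 12.29 in the other Fgf10+/- arrays. Klf9 was 8.36 in the same array, above 8.04 to 8.08 in the others. Hspa8 was 13.89 in wild-type replicate 3, below 14.15 to 14.20 in the other wild-type arrays.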

How the results depend on the processing

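The count of genes past the threshold was 0 in the main setting, 38 or 288 with genes below the 25th percentile or the median of signal left out, 414 with a variance trend and robust settings, 3 with array weights, and 0 to 1 with each array left out in turn (1 without wild-type replicate 4). Among the 10 genes it was 1, Zbtb16, with a variance trend or with genes below the median left out, and 0 in the other 18 of 20 alternatives. The count of lower genes whose groups do not overlap was 3 in the main setting, 2 after centring and 3 to 4 with an array left out, where over all genes it was 917, 768 to 881 and 1162 to 1601. Zbtb16, Errfi1, Pdk4, Tsc22d3, Fkbp5, Sgk1 and Angptl4 kept their sign in all 20 alternatives. Differences close to 0 changed sign without passing. Nr3c1 was at 0.11 with its features averaged or taken singly, 0.0085 with array weights, 0.0187 with wild-type replicate 4 and Fgf10+/- replicate 3 both left out, and between -0.0712 and 0.0182 with each array left out. Hsd11b1 was at 0.0114 with median centring, 0.0349 with those 2 arrays left out, and between -0.0782 and 0.0967 with each array left out. Cdkn1a was at 0.0402 with its features averaged. With the replicate block 0 genes passed, and limma's adjusted p was 0.293 for both Zbtb16 and Errfi1. The block lowered the SE of Pdk4 from 0.38 to 0.23 and of Errfi1 from 0.20 to 0.13. It raised the SE of Tsc22d3, Sgk1 and Angptl4. Deviations of same-numbered arrays had correlations of 0.113, 0.023, 0.018 and 0.078, and 4 of 8 arrays correlated best with their own number. No chance level was set for these values. The main fit did not take the numbers as pairs, and whether they are pairs was not settled. Signals near the floor limit what can be said of Nr3c2, Hsd11b2, Serpina6, Scnn1g, Btc, Erbb3, Erbb4, Ereg and Tgfa. A signal at the top of the range limits what can be said of Sftpc.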
